A study of Mus musculus with 8 samples.

Results

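Cholesterol is built from acetyl-CoA by a chain of enzymes, and 8 of the genes that encode them are described here in mouse rib chondrocytes: Hmgcs1, Mvd, Idi1, Fdps, Fdft1, Sqle, Lss and Cyp51. They were chosen by name, as the rows of the full expression table that carry these gene symbols. All 8 were found among the 18501 genes of the table and all 8 passed the filter on low counts. RNA was sequenced from 8 libraries in 4 groups of 2, each from rib cartilage chondrocytes of 10-day-old mice of the CD1 strain that were freed with collagenase and plated. CT mutants carry a C>T base change, and CT wild types are their controls. CG mutants carry a mutation in the seed region of the 3p arm of Mir140, and CG wild types are their controls. Per the design text, mice of both kinds overexpress the 5p arm of this cartilage microRNA. Whether the pair came from separate animals or dishes is not labelled, so p-values measure only how libraries of a group scatter, in part perhaps for technical reasons. The microRNA itself was not analysed here.

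The enzymes work in sequence. Hmgcs1 makes HMG-CoA in the cytosol, the precursor of mevalonate. Once mevalonate is phosphorylated, Mvd and Idi1 turn it into the activated isoprene units, and Fdps joins these into farnesyl diphosphate, from which protein prenyl groups, dolichol and ubiquinone side chains also branch off. Fdft1 commits farnesyl diphosphate to sterols by making squalene, Sqle oxidises squalene, Lss closes the ring to lanosterol, and Cyp51 removes a methyl group from lanosterol on the way to cholesterol. The genes are known targets of SREBP2, a membrane-bound transcription factor that SCAP escorts to the Golgi for cleavage when sterols are low and that INSIG proteins hold back when sterols are high. In cartilage, cholesterol also matters because Hedgehog ligands, which pace growth plate chondrocytes, carry it as a lipid anchor.

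The seed of the 3p arm, the region mutated in the CG line, is shown because it sets which 3′ UTR letters could pair with the wild-type microRNA. The mature sequence is from RefSeq, GRCm38.p6, plus strand, chr8:107551288-107551308, and capitals mark the seed, bases 2 to 8.
mmu-miR-140-3p: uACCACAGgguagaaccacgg
The complementary 7 letters, CTGTGGT, stood in the annotated 3′ UTR of 19.2% of the 13831 tested genes with a UTR of at least 50 bases. Among the 8 enzymes they were found once, in Cyp51, and not in the other 7. The site in Cyp51 is printed with its neighbours, and capitals mark the match.
Cyp51 3′ UTR site: ctccagcccaCTGTGGTggttccatcc
A match of letters is a description and was not tested for pairing.

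Promoter windows of 300 bases, from 250 bases before to 50 after the start, were found in RefSeq (GRCm38.p6, not the build the submitters name) for Hmgcs1, Mvd, Idi1, Lss and Cyp51. Those of Fdps, Fdft1 and Sqle were not analysed. The windows were searched on both strands for the core of the sterol regulatory element bound by SREBP (TCACNCCAC), the box of its common partner NF-Y (CCAAT, or ATTGG on the other strand) and the E-box CACGTG. Printed below are the windows of Hmgcs1 and Idi1, which differed between the mouse lines, and of Lss, which did not pass the test in any comparison. Capitals mark the matches.
Hmgcs1 (chr13:119690101-119690400, plus strand): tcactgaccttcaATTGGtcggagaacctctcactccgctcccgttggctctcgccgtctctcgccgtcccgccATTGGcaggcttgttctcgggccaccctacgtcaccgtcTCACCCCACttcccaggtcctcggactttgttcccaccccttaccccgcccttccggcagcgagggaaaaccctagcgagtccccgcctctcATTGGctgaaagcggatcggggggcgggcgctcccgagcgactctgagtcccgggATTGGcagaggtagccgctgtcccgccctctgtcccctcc
Idi1 (chr13:8885356-8885655, plus strand): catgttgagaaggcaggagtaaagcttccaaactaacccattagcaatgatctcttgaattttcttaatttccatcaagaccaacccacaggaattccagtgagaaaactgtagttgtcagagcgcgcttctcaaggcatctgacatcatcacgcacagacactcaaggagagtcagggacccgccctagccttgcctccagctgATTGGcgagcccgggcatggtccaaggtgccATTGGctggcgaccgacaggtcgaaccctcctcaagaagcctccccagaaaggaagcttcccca
Lss (chr10:76531355-76531654, plus strand): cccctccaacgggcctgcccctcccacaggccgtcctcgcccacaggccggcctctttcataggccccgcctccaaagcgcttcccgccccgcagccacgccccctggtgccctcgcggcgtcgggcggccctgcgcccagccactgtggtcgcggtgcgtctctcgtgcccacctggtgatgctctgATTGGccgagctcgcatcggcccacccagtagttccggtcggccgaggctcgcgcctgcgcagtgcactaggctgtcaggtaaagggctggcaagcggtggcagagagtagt
The Hmgcs1 window held the sterol element once, as TCACCCCAC at bases 114 to 122, and the NF-Y box 4 times. The NF-Y box was found 2 times each in Mvd and Idi1 and 1 time each in Lss and Cyp51. No E-box and no further sterol element was found in these letters. Of 32851 RefSeq windows of the same length, 1.24% held the sterol element, 37.4% the NF-Y box and 7.15% the E-box.

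Total counts ran from 26536868 to 28678641 per library. The chondrocyte label was met by the markers: the summed level of 7 cartilage genes, Col2a1 and Acan among them, was 37362 to 56094 CPM (read counts scaled to the size of the library) in the CT line and 29391 to 50298 CPM in the CG line. CG mutant replicate 1 stood apart within its group: its macrophage and endothelial marker sums were 9.76 and 8.89 CPM, against 26.1 and 28.0 CPM in CG mutant replicate 2. Its chondrocyte sum was 50298 CPM, against 29391 CPM in CG mutant replicate 2 and 31308 and 30187 CPM in the CG wild types. Apart from this library, the chondrocyte sums of the CG line lay below those of the CT line. Libraries within a group also differed in the Y-linked gene Ddx3y, which was counted 3512 and 30 times in the CT mutants, 3669 and 10 times in the CT wild types, 2231 and 2360 times in the CG mutants and 2 and 2511 times in the CG wild types. The labels give no sex. In the CT line Ddx3y was high in replicate 1 and low in replicate 2 of both groups, so there it cannot be told apart from replicate number. Results with a term for Ddx3y are among the alternatives.

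The levels of the 8 enzymes spanned a wide range. On the deposited FPKM scale, which divides by transcript length and so lets genes be compared, Sqle was highest with a mean of 27.9 ± 6.69 FPKM over the 8 libraries (SD). It was followed by Cyp51 at 20.6 ± 3.26, Hmgcs1 at 18.1 ± 5.31 and Fdps at 16.3 ± 3.55 FPKM. The other 4 formed a lower tier, with Lss at 6.01 ± 0.484, Idi1 at 4.92 ± 2.82, Mvd at 4.26 ± 0.707 and Fdft1 at 3.93 ± 2.40 FPKM. Within each tier, the ranges of neighbours in this order overlapped over the libraries, although Sqle exceeded Cyp51 in each of the 8. The upper tier did not overlap the lower one, since the lowest Fdps library had 10.7 FPKM and the highest library of the lower tier, for Idi1, had 8.58 FPKM. The spread was unequal. Lss varied least, from 5.30 to 6.59 FPKM, and Idi1 and Fdft1 varied most for their level, from 1.67 to 8.58 and from 1.58 to 6.61 FPKM.

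**Figure D1:**
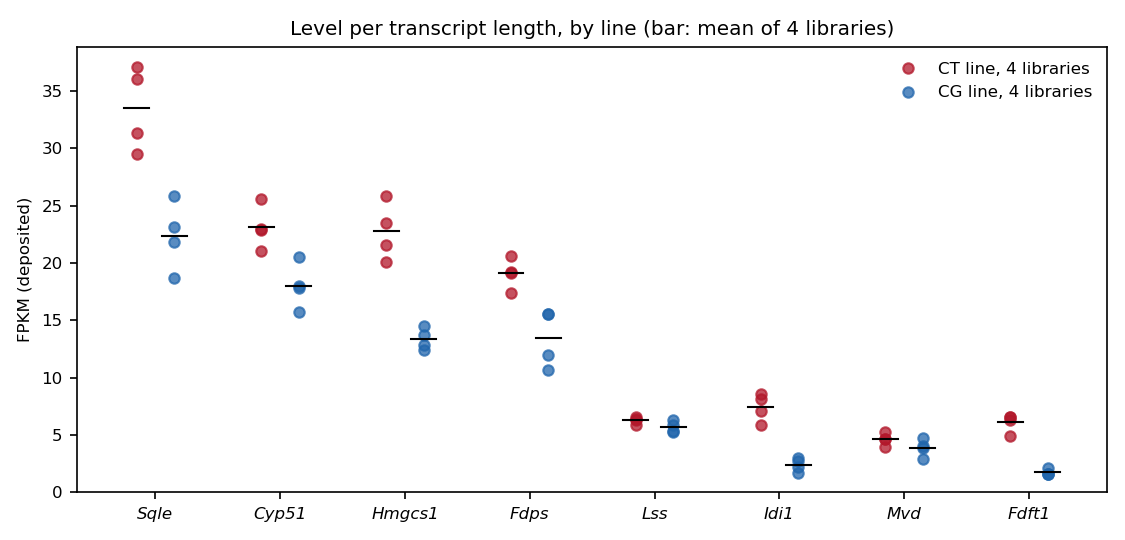
Deposited FPKM of each enzyme (vertical axis) in the 4 libraries of the CT line and the 4 of the CG line, with genes ordered by mean level and bars for the mean of 4 libraries. Idi1 averaged 7.43 FPKM in the CT line and 2.42 in the CG line, and Fdft1 6.10 and 1.75, while Lss stayed at 6.31 and 5.71.

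In the CG line, which compares the CG mutants with their wild types, none of the 8 enzymes passed the test. If only the mutants overexpress the other arm of the microRNA, this comparison cannot tell that apart from the 3p seed mutation. The values of Hmgcs1, the earliest of the 8 in the chain, were 48.5 and 51.1 CPM in CG mutants and 48.4 and 46.7 CPM in CG wild types. The mutants lay just above the wild types, at 0.07 ± 0.13 (log2 fold change with its SE). Sqle stood at 56.5 and 59.6 CPM in CG mutants and 63.2 and 72.6 CPM in CG wild types. Both mutant libraries were below both wild types, at -0.23 ± 0.14 on the log2 scale, but edgeR's adjusted p was 0.588. Mvd had the largest downward value, -0.33 ± 0.19, from 5.61 and 6.56 CPM in CG mutants and 6.99 and 8.34 CPM in CG wild types (edgeR, adjusted p = 0.545). Its 2 mutant libraries were again the lower ones. Fdft1 had the largest upward value, 0.25 ± 0.19, at 6.48 and 8.01 CPM in CG mutants and 6.05 and 6.15 CPM in CG wild types (edgeR, adjusted p = 0.634). Cyp51, which carries the seed match, stood at 87.1 and 77.8 CPM in CG mutants and 89.8 and 71.0 CPM in CG wild types. The CG mutant values of Cyp51 fell inside the range of the wild types, with a log2 fold change of 0.04 ± 0.14. The values of Idi1, Fdps and Lss were -0.05, 0.12 and 0.11 on the same scale, and Idi1 and Fdps overlapped between the groups.

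The quasi-likelihood test of edgeR called 0 of the 8 enzymes in the CG line, and 0 had an unadjusted p under 0.05. Over all 14359 genes tested, 1 gene, or 0.00696%, was called, and 1633 had an unadjusted p under 0.05. DESeq2 and limma on log2 FPKM also called 0 of the 8. The median log2 fold change of the 8 was 0.05, beside 0.00 over all genes tested, and 5 of 8 values were above 0. Without CG mutant replicate 1, 0 of 8 were again called. Fewer cells of a type and less RNA per cell cannot be told apart in libraries of whole cultures.

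In the CT line the 8 enzymes likewise did not pass the test. Fdft1 stood at 22.2 and 16.2 CPM in CT line mutants, against 22.3 and 22.3 CPM in CT line wild types. Replicate 1 of the mutants lay just under the wild types and replicate 2 further down, which gave -0.22 ± 0.17 on the log2 scale (edgeR, adjusted p = 0.976). Idi1 showed the same uneven pair, at 22.3 and 15.02 CPM in CT line mutants, against 19.3 and 21.1 CPM in CT line wild types, with -0.11 ± 0.26. Sqle was at 92.3 and 72.3 CPM in CT line mutants, against 93.2 and 78.0 CPM in CT line wild types, and the groups overlapped. Lss, the steadiest enzyme, was at 25.6 and 24.8 CPM in CT line mutants, against 24.1 and 22.8 CPM in CT line wild types. Both mutant libraries of Lss were above both wild types, by 0.10 ± 0.10 on the log2 scale, and edgeR's adjusted p was 0.976. Hmgcs1, Mvd, Fdps, Sqle and Cyp51 lay between -0.06 and 0.08, and all 5 overlapped between the groups. The test of edgeR called 0 of the 8, and 0 had an unadjusted p under 0.05, while over all genes 1 gene, or 0.00696%, was called and 734 had an unadjusted p under 0.05. DESeq2 and limma on log2 FPKM called 0 of the 8 here too. The median over the 8 was -0.03, beside 0.00 over all genes, and moved between -0.19 without CT mutant replicate 1 and 0.12 without CT mutant replicate 2. The lone library left in the CT mutants by such a fit is assumed to vary like the other groups.

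The effects of the mutations were then compared with each other as an interaction. Values of the CG mutant effect minus the CT mutant effect ran from -0.31 for Mvd to 0.47 for Fdft1, with a median of 0.03 over the 8 enzymes and 0.01 over all genes. For Fdft1 the standard error was 0.25 and edgeR's adjusted p was 0.967. The edgeR test called 0 of the 8, with 0 at an unadjusted p under 0.05, and DESeq2 also called 0. Over all genes 3, or 0.0209%, were called by edgeR and 687 had an unadjusted p under 0.05.

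**Figure D2:**
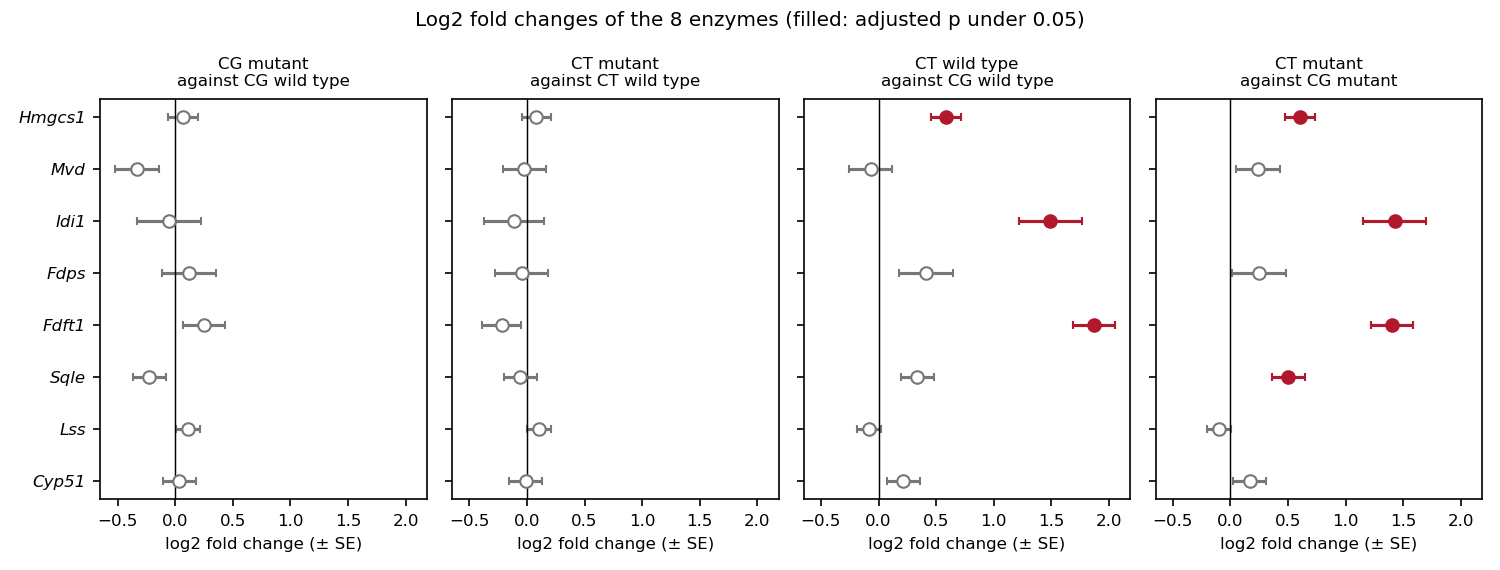
Log2 fold change (horizontal axis, with SE as bars) of each enzyme in 4 comparisons, filled where edgeR's adjusted p was under 0.05. No point is filled within a line, while Hmgcs1, Idi1 and Fdft1 are filled in both comparisons between lines and Sqle in that of the mutants.

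Between the lines the enzymes differed. Taking the wild types first, which carry neither mutation, Fdft1, Idi1 and Hmgcs1 were higher in CT wild types than in CG wild types. Fdft1, the first enzyme committed to sterols, stood at 22.3 and 22.3 CPM in CT wild types and 6.05 and 6.15 CPM in CG wild types. The groups were far apart and tight, and the difference was 3.66-fold, or 1.87 ± 0.18 on the log2 scale (edgeR, adjusted p = 0.0005). Idi1, the isomerase of the isoprene units, stood at 19.3 and 21.1 CPM in CT wild types and 6.27 and 8.14 CPM in CG wild types. Idi1 was 2.81-fold higher (1.49 ± 0.27; edgeR, adjusted p = 0.00552), with no overlap. Hmgcs1 was at 78.3 and 64.6 CPM in CT wild types and 48.4 and 46.7 CPM in CG wild types. Both CT wild types were above both CG wild types, by 1.5-fold or 0.59 ± 0.13 on the log2 scale (edgeR, adjusted p = 0.0110). With replicate 1 or 2 of the CG wild types left out, Hmgcs1 stood at 0.61 and 0.56 and missed the threshold (edgeR, adjusted p = 0.0542 and 0.0711), in fits that called 2431 and 2137 genes, beside 4843. Without replicate 1 of the CT wild types it stood at 0.44 (edgeR, adjusted p = 0.0529), with 3511 genes called.

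The other 5 enzymes did not pass between the wild types. Sqle was nearest, at 93.2 and 78.0 CPM in CT wild types and 63.2 and 72.6 CPM in CG wild types. The groups of Sqle did not overlap, and the difference of 0.34 ± 0.14 had an adjusted p of 0.105 in edgeR. The adjusted p of edgeR fell to 0.0250 with a term for Ddx3y and to 0.0357 with the replicate number as a block. In the CT line both terms split the libraries alike, so they are not separate checks there. With limma on log2(FPKM + 1) the adjusted p was 0.0498. Fdps, at 21.7 and 20.8 CPM in CT wild types and 12.8 and 19.2 CPM in CG wild types, had 0.41 ± 0.23 (edgeR, adjusted p = 0.203). The CG wild types of Fdps were far from each other. Cyp51 was at 95.2 and 91.5 CPM in CT wild types and 89.8 and 71.0 CPM in CG wild types, with 0.21 ± 0.14 (edgeR, adjusted p = 0.277), and its highest CG wild type lay just under its lowest CT wild type. Mvd and Lss overlapped between the groups, with -0.07 ± 0.19 and -0.08 ± 0.10.

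In the mutants the same 3 enzymes were higher in the CT line, and Sqle passed as well. Fdft1 stood at 22.2 and 16.2 CPM in CT mutants and 6.48 and 8.01 CPM in CG mutants, 2.64-fold apart (1.40 ± 0.18; edgeR, adjusted p = 0.00115). Idi1 stood at 22.3 and 15.02 CPM in CT mutants and 5.28 and 8.59 CPM in CG mutants, 2.69-fold apart (1.43 ± 0.27; edgeR, adjusted p = 0.00574). Neither gene overlapped between the groups, although each pair of mutants was uneven. Hmgcs1 was 1.52-fold higher, at 83.1 and 68.1 CPM in CT mutants and 48.5 and 51.1 CPM in CG mutants (log2 0.60 ± 0.13; edgeR, adjusted p = 0.00882). Sqle, the squalene oxidase, was 1.42-fold higher, at 92.3 and 72.3 CPM in CT mutants and 56.5 and 59.6 CPM in CG mutants (log2 0.50 ± 0.14; edgeR, adjusted p = 0.0273). Without CT mutant replicate 1, the higher of the pair for both genes, Hmgcs1 stood at 0.45 (edgeR, adjusted p = 0.0606) and Sqle at 0.32 (0.171), and 2 enzymes were called, in a fit that called 2931 genes, beside 5184. Sqle also missed the threshold without CG mutant replicate 1, at 0.46 (edgeR, adjusted p = 0.0990), and without CG mutant replicate 2, at 0.53 (0.0582). Of the rest, Lss had -0.09 ± 0.10, Cyp51 0.17 ± 0.14, Mvd 0.24 ± 0.19 and Fdps 0.25 ± 0.23, and none passed. That Sqle passed in the mutants and not in the wild types does not show that the 2 differ: the interaction for Sqle was -0.17 ± 0.20 (edgeR, adjusted p = 0.976).

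**Figure D3:**
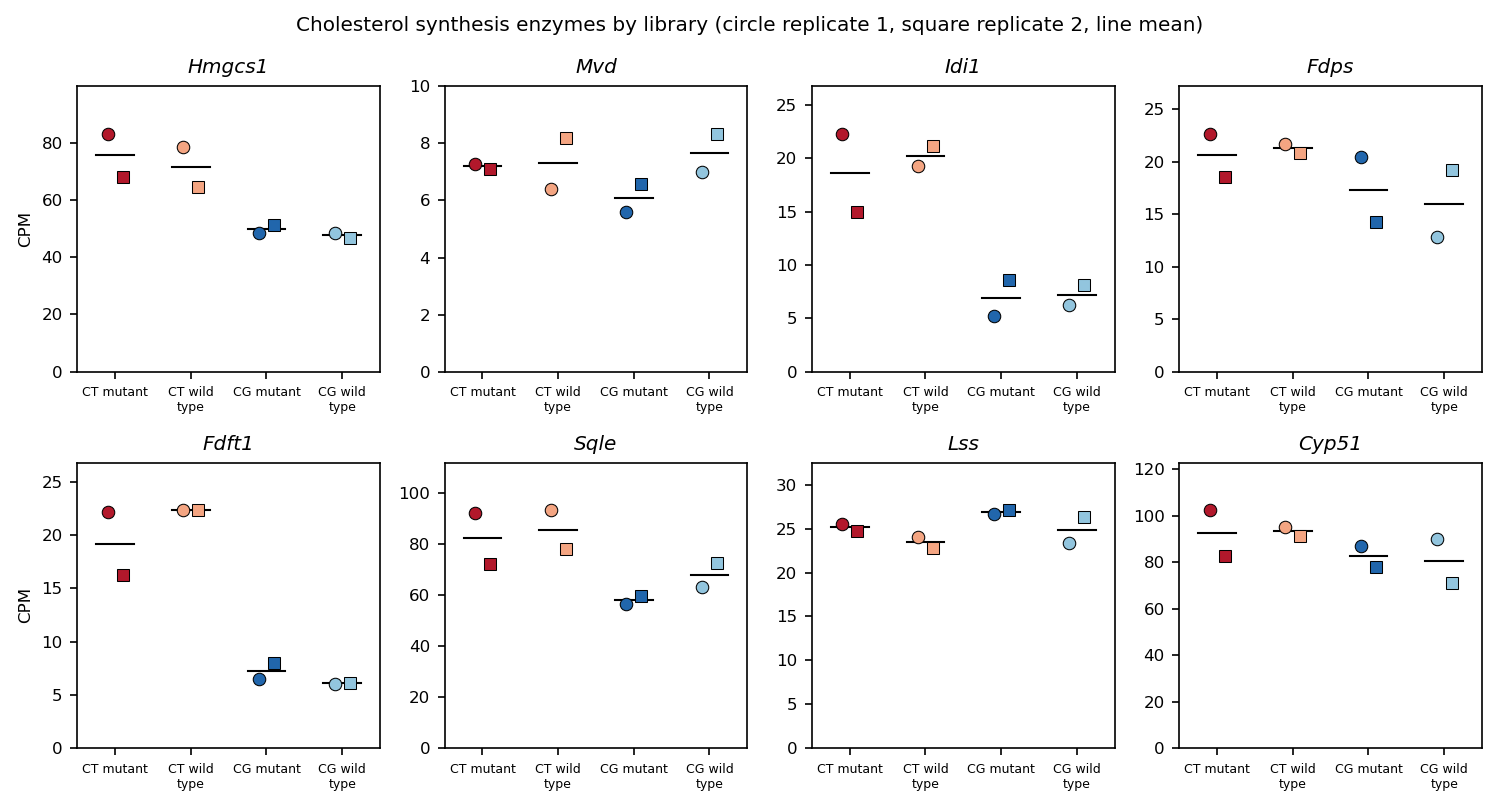
CPM of each enzyme (vertical axes, each starting at 0) in the CT mutants, CT wild types, CG mutants and CG wild types, with 1 symbol per library and a line for the mean. Idi1 and Fdft1 stand at 15.02 to 22.3 and 16.2 to 22.3 CPM in the CT line and at no more than 8.59 and 8.01 CPM in the CG line, while Lss lies between 22.8 and 27.1 CPM in all libraries.

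Differences between the lines were common in these libraries, and the counts of enzymes are to be read against that. Between the wild types, 3 of 8 enzymes were called higher and 0 lower, beside 17% of all tested genes called higher and 16.8% lower. Between the mutants, 4 of 8 were called higher and 0 lower, beside 17.9% higher and 18.2% lower. In 3 of 8, Hmgcs1, Idi1 and Fdft1, all 4 CT libraries had a higher CPM than all 4 CG libraries, beside 23.7% of all genes, and in 0 of 8 were they all lower, beside 23.1% of all genes. The median log2 fold change of the enzymes was 0.37 between the wild types and 0.38 between the mutants, beside 0.00 and -0.01 over all genes. Both comparisons use different libraries but the same lines, and the line cannot be told apart from anything else that differed between the lines when the libraries were made.

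The scale bears on these counts. FPKM values were used as deposited, without the TMM factors applied to CPM, and with log2(FPKM + 0.1) the median of all genes moved to 0.13 between the wild types and 0.20 between the mutants, with higher calls making up 65.6% and 71.9% of all calls in place of 50.3% and 49.5%. With log2(FPKM + 1) these shares were 67.4% and 72.8%. On these scales Hmgcs1, Idi1 and Fdft1 kept their direction and their calls, while with log2(FPKM + 0.1) Lss turned to 0.14 between the wild types and 0.15 between the mutants and Mvd to 0.05 between the wild types. On the FPKM scale 6 of 8 enzymes, all but Mvd and Lss, were higher in all CT libraries than in all CG libraries, beside 33.8% of all genes, and 0 of 8 were lower, beside 14.3%.

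Idi1 and Fdft1 carry a limit that the other enzymes do not. Their counts were not whole in any of the 8 libraries, as can happen where reads are divided between near-identical copies, so their levels and folds are uncertain to that extent. Genes with such counts were called between the wild types in 28.3% of 1476 cases, against 34.6% of the 11595 genes with whole counts in all libraries. With Idi1 and Fdft1 set aside, Hmgcs1 was the called enzyme between the wild types and Hmgcs1 and Sqle were those between the mutants.

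Markers of some other cell types moved with the line as well. The erythroid, macrophage and endothelial sums did not overlap between the lines, while the adipocyte, skeletal muscle and fibroblast sums did. The summed erythroid markers, globin genes among them, were 648 to 2215 CPM in the CT line and 1.33 to 5.75 CPM in the CG line, with Hbb-b1 at 0 in both CG wild types. Inside the CT line they were 648 and 1141 CPM in the mutants and 2215 and 1475 CPM in the wild types. The 5 macrophage and leukocyte markers summed to 30.5 to 45.7 CPM in the CT line and 9.76 to 26.1 CPM in the CG line, and the 3 endothelial markers to 43.1 to 83.4 and 8.89 to 28.0 CPM. The 4 adipocyte markers, a cell type rich in lipid enzymes, summed to 4.83 to 10.3 and 2.37 to 6.27 CPM. Most of that sum was Fabp4, the only 1 of the 4 to pass the filter on low counts. Fabp4 was not called between the wild types or between the mutants (edgeR, adjusted p = 0.476 and 0.0526). The 3 skeletal muscle markers summed to 3.49 to 5.49 and 5.07 to 18.1 CPM. They overlapped only through CG mutant replicate 1, at 5.07 CPM, with 18.1 CPM in CG mutant replicate 2 and 10.9 and 11.9 CPM in the CG wild types. Of 2 muscle markers tested, 2 were called lower between the wild types and 0 between the mutants. The 5 fibroblast markers summed to 2616 to 3581 and 2551 to 3598 CPM. The fibroblast sums were close although single markers moved in opposite directions. Dcn, a small proteoglycan, was lower in the CT line (log2 fold change of -2.23 between the wild types and -2.13 between the mutants), while the collagens Col1a1 (1.89 and 2.27) and Col1a2 (1.54 and 1.83) were higher in both comparisons and Col3a1 between the mutants (1.77). Of the 7 chondrocyte markers, 4 were called higher and 0 lower between the wild types, and 3 higher and 0 lower between the mutants. Their median log2 fold change was 0.82 between the wild types, with 6 of 7 above 0. Between the mutants the median was -0.04, with 3 of 7 above 0 and the lowest at -0.69. Acan was at 6966 CPM in CG mutant replicate 1 and 3724 CPM in CG mutant replicate 2, against 3070 and 3563 CPM in CT mutants. Comp, a cartilage matrix protein, had log2 fold changes of 2.21 and 1.78, and the matrilin Matn1 1.33 and 1.76. The part of these markers in the differences of the enzymes was not tested.

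**Figure D4:**
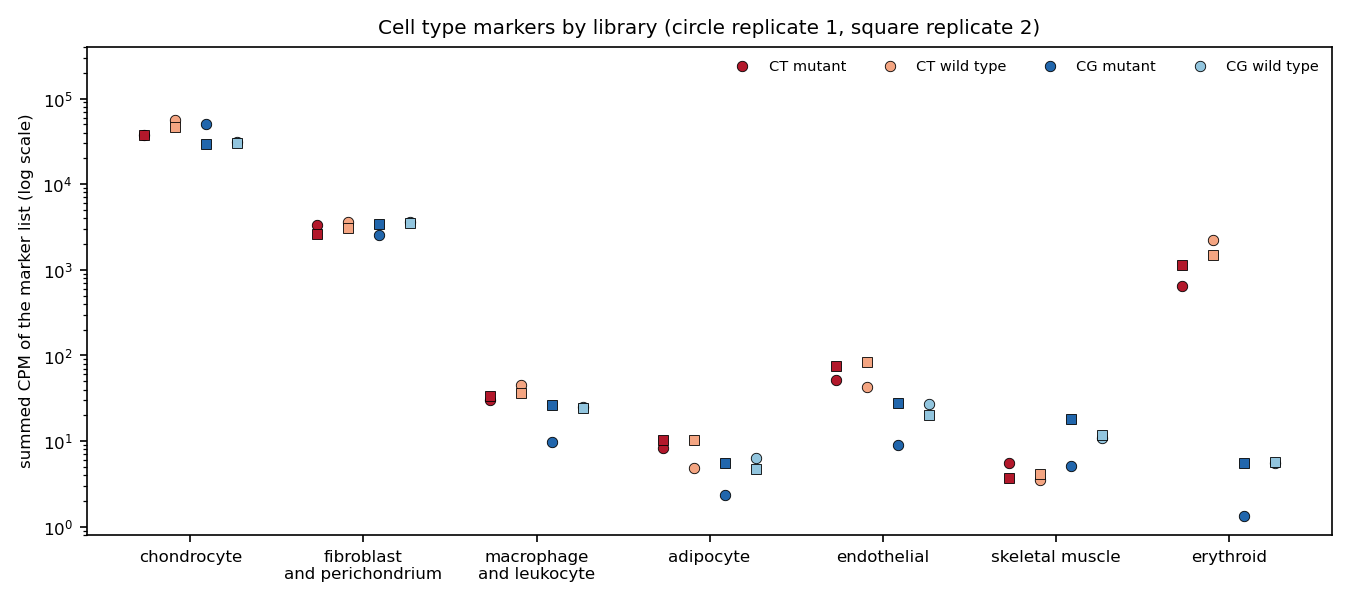
Summed CPM of 7 marker lists (vertical axis, log scale) by library, in the order CT mutant, CT wild type, CG mutant and CG wild type. Chondrocyte sums overlap between the lines only through CG mutant replicate 1, at 50298 CPM. CG mutant replicate 2 and the CG wild types lie at 29391, 31308 and 30187 CPM, and the lowest CT library at 37362 CPM. Fibroblast sums overlap as well, although single markers in both lists differed. Erythroid sums are 648 CPM or more in the CT line and 5.75 CPM or less in the CG line.

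Other enzymes of the pathway showed a mixed picture. Of 11 such enzymes compared, 2 were called higher and 0 lower between the wild types, and 4 higher and 0 lower between the mutants, with medians of 0.11 and 0.21. Over all tested genes, 17% were higher and 16.8% lower between the wild types, and 17.9% higher and 18.2% lower between the mutants, so that the count between the wild types was near the share over all genes. Sc5d, a desaturase late in the chain (log2 fold change of 0.91 between the wild types and 0.87 between the mutants), and Lbr, a sterol reductase of the nuclear envelope (0.45 and 0.73), were higher in both. Hsd17b7 (0.69) and Dhcr7 (0.69), which act on late sterol intermediates, were higher between the mutants. Within a line, 0 of these 11 passed by edgeR, with 3 at an unadjusted p under 0.05 in the CG line and 2 in the CT line, beside 1633 and 734 of all 14359 genes.

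Regulators and targets of SREBP2 were also compared. Of 9 listed genes, 4 were called higher and 1 lower between the wild types, and 4 higher and 2 lower between the mutants. The shares over all genes were 17% higher and 16.8% lower between the wild types, and 17.9% and 18.2% between the mutants, and the counts of lower genes lay near them. Srebf2, which encodes SREBP2, was higher by 0.49 and 0.52. Insig1, the sterol-sensing brake and itself a target, was higher by 0.81 and 1.02, the sterol carrier Stard4 by 0.84 and 0.82, and Tmem97 by 0.98 and 0.88. Mbtps1, the site-1 protease that cleaves SREBP, was lower, at -0.38 and -0.56, and the escort Scap was lower between the mutants, at -0.31. Within a line 0 of the 9 passed by edgeR, with 1 at an unadjusted p under 0.05 in the CG line and 0 in the CT line.

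**Figure D5:**
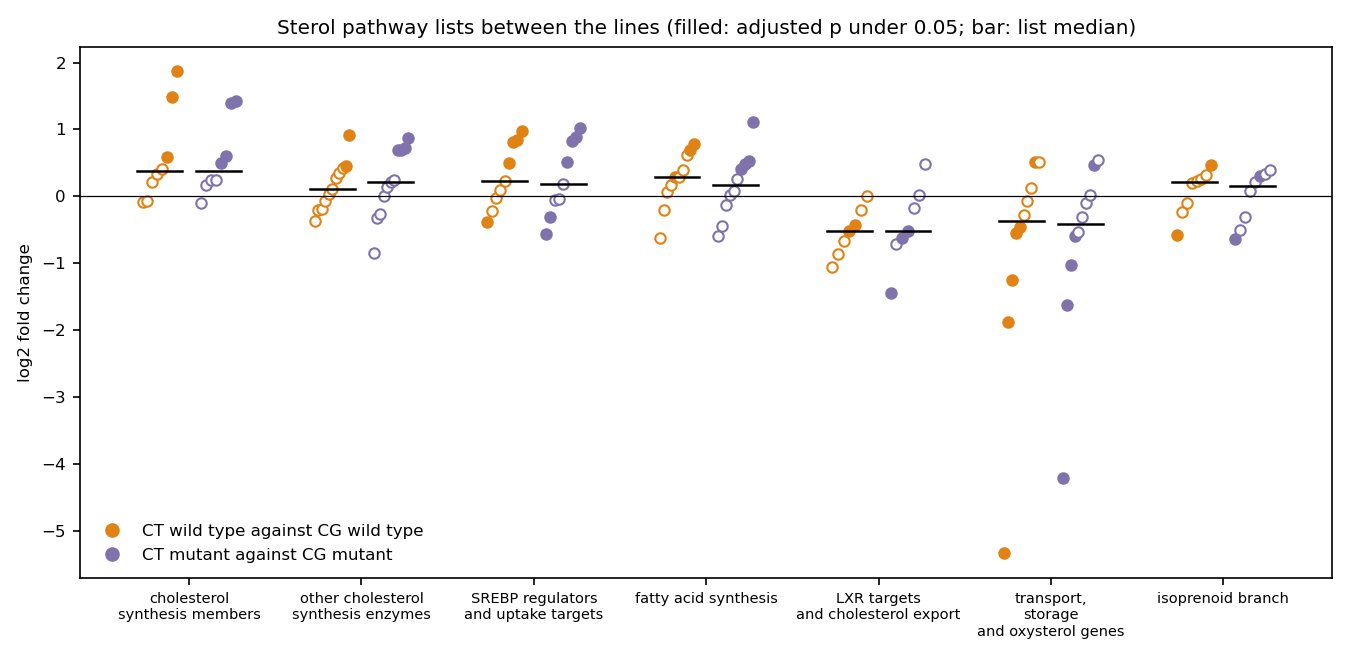
Log2 fold change of single genes (vertical axis) in the 8 enzymes and 6 further lists of sterol and lipid genes, for CT wild type against CG wild type and CT mutant against CG mutant, with bars for list medians and filled points where edgeR's adjusted p was under 0.05. The enzymes have medians of 0.37 and 0.38, and the transport, storage and oxysterol list has medians of -0.37 and -0.41.

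The remaining lists are to be read against the same shares over all genes, 17% higher and 16.8% lower between the wild types and 17.9% and 18.2% between the mutants. Of 10 fatty acid synthesis genes, 3 were called higher between the wild types and 4 between the mutants, with 0 lower: Fasn (0.70 and 0.42), Elovl6 (0.78 and 1.12) and Me1 (0.29 and 0.53) in both, and Acly (0.49) between the mutants. Of 7 targets and members of the LXR system, which senses oxysterols, 2 were lower between the wild types and 3 between the mutants, with 0 higher. They were Nr1h2 (-0.52 and -0.51), Apoe (-0.43), Nr1h3 (-1.45) and Smpdl3a (-0.62). Abca1, the cholesterol exporter, did not pass, at 16.2 and 18.8 CPM in the CT mutants, 17.7 and 23.1 CPM in the CT wild types, 16.95 and 40.6 CPM in CG mutants and 39.1 and 35.2 CPM in CG wild types. CG mutant replicate 1 was the low one of the CG line for Abca1, and without it the difference between the mutants was -1.21 and passed. Of 10 transport, storage and oxysterol genes, 1 was higher and 5 lower between the wild types, and 1 higher and 4 lower between the mutants. Among them the lysosomal sterol carrier Npc2 (-1.24 and -1.03), the oxysterol hydroxylase Cyp7b1 (-1.87 and -1.63) and the lipoprotein receptor Vldlr (-0.55 and -0.59) were lower in both. Ch25h, which makes 25-hydroxycholesterol, was also lower, at 0.229 and 0.305 CPM in the CT mutants, 0.247 and 0.238 CPM in the CT wild types, 0.416 and 9.54 CPM in CG mutants and 8.95 and 11.0 CPM in CG wild types. CG mutant replicate 1 lay near the CT line for Ch25h. Npc1 (-0.46) was lower and Lipa (0.52) higher between the wild types, and Scarb1 (0.47) was higher between the mutants. In the isoprenoid branch of 8 genes, 1 was higher and 1 lower in each comparison, no more than the share over all genes: Dhdds was lower in both (-0.57 and -0.63), Fntb higher between the wild types (0.46) and Nus1 higher between the mutants (0.31). Of 16 alternative settings, the calls of Lbr, Sc5d, Insig1, Stard4, Tmem97 and Npc2 in both comparisons were lost in 0. Between the wild types those of Mbtps1 and Me1 were lost in 9, Apoe and Fntb in 7, Npc1 in 6, Vldlr in 5 and Srebf2 in 4. Between the mutants that of Scap was lost in 7, Ch25h in 6 of 15, and Nr1h3, Smpdl3a, Nus1 and Vldlr in 4. The other calls named from these lists were lost in at most 3.

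The 8 enzymes did not move as a block across libraries. The summed CPM of the 8 was 305 to 378 in the CT line and 253 to 258 in the CG line, but the line difference in mean log2 CPM ran from -0.09 for Lss, 0.08 for Mvd and 0.19 for Cyp51 to 1.46 for Idi1 and 1.62 for Fdft1. The SD between replicates of a group was 0.07 for Lss and 0.35 for Idi1 on the same scale. The tested genes outside the list whose log2 CPM followed the mean of the 8 most closely over the 8 libraries were Oxsr1 (Pearson r = 0.994), Mgat1 (0.987), Ybx3 (0.984), Itpripl1 (0.984) and Arhgef4 (0.983). Among the listed pathway genes reported here, Srebf2 (0.978), Stard4 (0.969) and Tmem97 (0.944) were the closest. These values describe likeness alone, since the libraries fall into 2 lines and any gene that differs between the lines shares that step.

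The authors' deposited table of comparisons holds 4 of the 8 enzymes, Fdft1, Hmgcs1, Idi1 and Sqle. For CT wild types over CG wild types the authors' deposited table gives log2 ratios of 1.88, 0.59, 1.49 and 0.34 in that order. Its q-values there are 5.87e-17 for Fdft1, 0.00126 for Hmgcs1, 1.3e-09 for Idi1 and 0.104 for Sqle. For CT mutants over CG mutants the authors' deposited table gives 1.41, 0.61, 1.44 and 0.51, with q-values of 3.13e-06, 0.00239, 0.000159 and 0.0213. The same 3 and 4 enzymes are under 0.05 in that table as in the edgeR fit. Both rest on the same libraries, and how the 2655 genes of that table were chosen is not stated in the sources at hand. The enzymes it holds are those that edgeR called between the mutants. Each pathway gene found in it has a positive ratio between the wild types, while Npc2 and Cyp7b1, lower in edgeR, are absent. The match is therefore not separate support. Within a line, all q-values of the 4 enzymes in the authors' deposited table are 0.999 or above.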

How the data were processed

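RNA sequencing values of 8 libraries were used. RNA of plated cells was taken with TRIzol, per the labels' protocols, and sequenced on DNBSEQ, per the design text. HISAT2 2.0.4 and mm9 are named, with no role, in the submitters' processing notes; counter and annotation are not stated in the sources at hand. Per the file headers, the authors deposited estimated counts, with no normalization, and FPKM values for 18501 genes; between 2282 and 2518 genes per library had fractional counts, which were rounded. Deposited q-values and log2 ratios cover 2655 genes.

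Counts were fitted in edgeR 4.0.16 (R 4.3.3; TMM, default filter, 4 group means, 14359 genes, 4 residual degrees of freedom, quasi-likelihood F test, Benjamini-Hochberg over all genes, threshold 0.05). SE is the absolute log2 fold change over the square root of F. Alternatives used DESeq2 1.42.0 and limma 3.58.1. The fit was tested on simulated data. Dates were turned back into symbols for 24 genes. Counts of replicates differed beyond sampling noise.

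The enzymes, gene lists and tests were chosen with earlier results of these data known. Named pathway genes are those past the threshold in any comparison plus Insig1, Srebf2 and Abca1, and the 5 genes with the highest r with the mean of the 8. Sequences came from RefSeq (GRCm38.p6), and 3′ UTRs from the GENCODE annotation of the same build. The further table with 3 libraries was not used. A few genes of the pathway lists are not reported here and were left out of the list counts.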

Additional observations from a re-analysis of the deposited data

How the results depend on the processing

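The counts of called enzymes were stable in most settings. Within each line and for the difference of the mutant effects, 0 of 8 enzymes were called under DESeq2, RLE factors, no filter, both FPKM scales, the term for Ddx3y, the replicate block and each left-out library. Between the wild types 3 were called, and 4 with log2(FPKM + 1), the replicate block or the Ddx3y term, where Sqle passed too (edgeR, adjusted p = 0.0357 with the block), with a range of 2 to 3 when libraries were left out. Between the mutants 4 were called, with a range of 2 to 4 when libraries were left out. Idi1 and Fdft1 were called in both comparisons in all settings run.

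Genes that turned sign with the scale or a covariate did not pass the test in either form, and the cause was not tested. With log2(FPKM + 1) and log2(FPKM + 0.1), Cyp51 had -0.0073 and -0.0070 in the CG line, and 0.019 and 0.019 in the CT line. Mvd had 0.021 and 0.027 in the CT line and 0.045 and 0.053 between the wild types. Lss had 0.12 and 0.14 between the wild types and 0.13 and 0.15 between the mutants, and Apoe 0.031 and 0.032 between the mutants. With the Ddx3y term, Hmgcs1 had -0.025 and Fdps -0.016 in the CG line. The median of the enzymes was 0.51 between the wild types with log2(FPKM + 0.1), and between the mutants 0.56 and 0.59 with the FPKM scales and 0.51 with the Ddx3y term.

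With 1 library left out, the median ran from -0.19 to 0.12 in the CT line, from -0.12 to 0.17 for the difference of effects, from 0.29 to 0.50 between the wild types and from 0.27 to 0.53 between the mutants. In the CG line Idi1 ran from -0.44 to 0.25, Fdps from -0.17 to 0.44 and Cyp51 from -0.12 to 0.21. In the CT line Hmgcs1 ran from -0.068 to 0.23, Mvd from -0.19 to 0.17, Idi1 from -0.43 to 0.14, Fdps from -0.20 to 0.092, Sqle from -0.24 to 0.11 and Cyp51 from -0.17 to 0.13. Between the wild types Mvd ran from -0.25 to 0.098, Lss from -0.17 to 0.0047 and Dhcr7 from -0.18 to 0.35. Between the mutants Lipa ran from -0.010 to 0.050 and Abca1 from -1.21 to 0.041, so that Abca1 passed without CG mutant replicate 1.

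Same-numbered libraries of a line deviated from their group means with r = -0.0892 in the CG line and 0.248 in the CT line. With 2 libraries per group the deviations mirror each other, so each r is a single value. In the CT line replicate number and Ddx3y split the libraries alike, so the r there cannot be assigned to either. The numbers were thus not shown to pair the libraries. The block by replicate number gave 4454 calls over all genes between the wild types and 4813 between the mutants, beside 4843 and 5184 without it. Calls over all genes fell to 2431, 2137 and 3092 between the wild types without CG wild type replicate 1, CG wild type replicate 2 and CT wild type replicate 2, and to 2931 and 2908 between the mutants without CT mutant replicate 1 and 2. In the CG line DESeq2 called 213 genes, the fit without a filter 13 and that without CG mutant replicate 2 522, beside 1. In the CT line DESeq2 called 20, beside 1, and for the difference 38, beside 3, and 97 without CG mutant replicate 2. The fit has 2 libraries per group and 4 residual degrees of freedom, and counts of 126.82 for Idi1 and 135 for Mvd in the thinnest library limit their precision.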
